A study of Mus musculus with 6 samples.

Results

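The genes described here build and guard the cilium. They are 34 mouse genes that encode parts of the intraflagellar transport trains, of the BBSome with its chaperonin-like assembly factors, and of the ciliary transition zone, and they were chosen by name from among the 21751 protein-coding genes of the annotation. Cells carry a primary cilium as an antenna for signals, and male germ cells later build a related structure, the sperm flagellum. Intraflagellar transport moves cargo along the axoneme: IFT-B trains run outward with kinesin, and IFT-A trains serve the return by dynein and the entry of membrane proteins. The BBSome rides on these trains as an adaptor for membrane proteins, and the transition zone at the base of the cilium, with its MKS and NPHP modules, acts as a gate.

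The question was whether TAF4b, a subunit of the promoter-binding factor TFIID that is enriched in gonads, lies at the starts of these genes, with H3K4me3, a histone mark of active promoters, measured in the same kind of cell. Both were mapped by CUT&RUN, in which an antibody directs a nuclease to its antigen and the released DNA is sequenced. The cells were prospermatogonia, germ cells of the developing testis that have stopped dividing, from male C57BL/6 embryos at E16.5 (embryonic day) that were wild type for Taf4b. Parents were homozygous for the Oct4-EGFP transgene (B6;129S4-Pou5f1tm2Jae/J), and live GFP+ cells were sorted from dissociated gonads, so that every library shares the reporter and the gate. There were 2 libraries for TAF4b, 2 for H3K4me3 and 2 for IgG. The IgG pair is not analysed here, and whether the authors used it as a control when calling peaks is not given in the sources used here. In the present values no antibody background was set against the peaks, and no other genotype, age or sex was compared.

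The deposited lists hold 7861 and 848 TAF4b peaks and 64891 and 1730 H3K4me3 regions for replicates 1 and 2. The replicates of 1 antibody differ so much in size that each list is read on its own. The depth of the libraries is unknown, and the labels do not say whether replicates came from separate animals. Of the germ cell markers, 8 of 12 had TAF4b at the promoter in replicate 1, among them Ddx4 and Dazl, beside 22.7% of coding genes. Nanos2, Nanos3, Dppa4 and Pou5f1 had no peak there. Of the Sertoli cell markers 0 of 5 had one, of the Leydig and interstitial markers 0 of 7 and of the endothelial and blood markers 0 of 4. Counting peaks within 500 bp of a start left these at 8, 0 and 0 for germ, Sertoli and endothelial and blood markers. It gave 1 of 7 for Leydig and interstitial markers (Nr2f2). The share of coding genes by that rule was 27.1%. TAF4b replicate 2 listed no marker of any of these cell types by either rule, beside 3.14% and 3.94% of coding genes. H3K4me3 within 500 bp of a start was listed in replicate 1 for 9 of the 12 germ cell markers, 4 of the 5 Sertoli, 3 of the 7 Leydig and interstitial and 1 of the 4 endothelial and blood markers, beside 68.5% of coding genes. By the promoter class these H3K4me3 counts were 5, 3, 3 and 0 in the same order, beside 44% of coding genes. H3K4me3 replicate 2 listed no marker by either rule, beside 4.14% and 6.54% of coding genes. What part other cells of the testis have in the H3K4me3 regions described below was not tested.

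The sequences at 3 of the strongest TAF4b sites show the kind of promoter at hand. At 2 of them the start of a neighbouring gene lies head to head with the ciliary gene, and the bases between the starts are shown on the strand of the ciliary gene. For Ift57 the bases of the peak upstream of its canonical start are shown. Capitals mark CCAAT boxes (CCAAT) and GC boxes (GGGCGG) on either strand, and all are from the GRCm39 genome.
Cramp1 start to Ift140 start, chr17:25234904-25235042, plus strand: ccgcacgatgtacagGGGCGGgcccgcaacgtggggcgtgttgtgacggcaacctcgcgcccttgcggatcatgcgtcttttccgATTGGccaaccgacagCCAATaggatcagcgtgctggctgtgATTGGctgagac
Tmtc3 start to Cep290 start, chr10:100323213-100323415, plus strand: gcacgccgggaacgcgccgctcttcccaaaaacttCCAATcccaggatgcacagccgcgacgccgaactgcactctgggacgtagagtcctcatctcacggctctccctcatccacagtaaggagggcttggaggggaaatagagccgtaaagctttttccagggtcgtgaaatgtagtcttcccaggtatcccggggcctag
Ift57, chr16:49519408-49519543, plus strand: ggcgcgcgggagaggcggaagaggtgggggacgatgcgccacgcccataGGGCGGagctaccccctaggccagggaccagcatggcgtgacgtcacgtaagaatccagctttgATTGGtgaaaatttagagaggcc
The Ift140 interval of 139 bp holds 3 CCAAT boxes, 0 of them inside the TAF4b peak, and 1 GC box, which is inside it. The Cep290 interval of 203 bp holds 1 CCAAT box, outside the peak, and 0 GC boxes. The Ift57 stretch of 136 bp, all of it peak, holds 1 of each. Of the bases shown, 71 at Ift140 and 120 at Cep290 belong to the peak.

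By the deposited promoter class, TAF4b lay at the promoters of 19 of these genes in the larger list and of 1 in the smaller. A promoter peak is a peak whose deposited class is promoter-TSS (transcription start site) with a transcript of that gene named. In the first list, 19 of 34 genes (55.9%) had such a peak, and 22.7% of all protein-coding genes did. Taking instead the gene that the deposited nearest-promoter column names, within 1000 bp, gave 13 genes, beside 23.9% of coding genes. The 6 that drop out have the same peaks, for which that column names the neighbouring gene (Ift140, Tctn3, Nphp4 and Rpgrip1l) or a transcript not matched here (Ift80 and Tmem67). Among the higher-scoring 50% of peaks 13 genes had a promoter peak, beside 14.4% of coding genes. In replicate 2 the only one was Ift80 (2.94%), and 3.14% of protein-coding genes had a peak there. The share in replicate 1 was thus above that of coding genes in general, and the share in replicate 2 was near it. When replicate 1 was cut to its 848 highest-scoring peaks, as many as replicate 2 lists, 5 of the 34 genes kept a promoter peak, beside 3.35% of coding genes. These 5 were Ift57, Ift140, Ift80, Cep290 and Rpgrip1l.

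Counting any peak within 500 bp of an annotated start (that of a protein-coding transcript in the basic GENCODE set), whichever gene the deposited annotation names, gave 20 of 34 genes in replicate 1 and 2 of 34 in replicate 2. The shares of coding genes by that rule were 27.1% and 3.94%. The gene added in both replicates is Ift20, whose peak is annotated to its neighbour Tnfaip1. Both replicates therefore list a peak at Ift80 and at Ift20, which both encode subunits of the peripheral IFT-B subcomplex. Of the 19 promoter peaks of replicate 1, only the Ift80 peak overlapped a replicate 2 peak, and 10.6% of all promoter peaks of replicate 1 did.

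**Figure D1:**
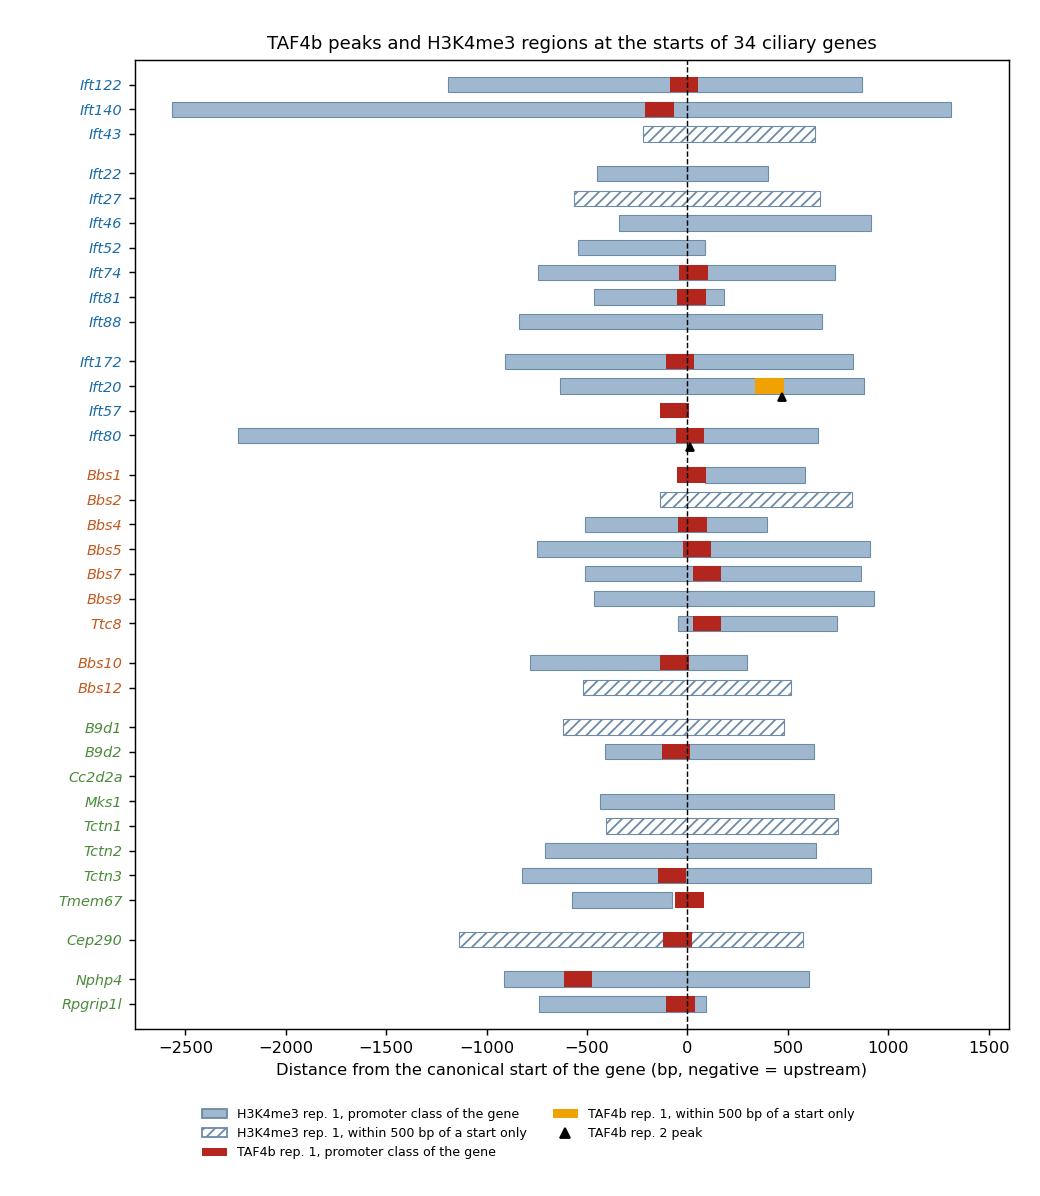
TAF4b peaks and H3K4me3 regions of replicate 1 (bars) and TAF4b peaks of replicate 2 (triangles) at the canonical starts of the 34 genes, in bp from the start, with the genes grouped by complex from IFT-A (top) to the NPHP module (bottom). TAF4b peaks of 142 bp sit at or next to the start in most rows, the Nphp4 peak lies farther upstream and the Ift20 peak downstream, and Cc2d2a has neither a peak nor a region by these rules.

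The highest TAF4b scores of the 34 genes were those of IFT genes. Promoter peaks were found in replicate 1 at 7 of 14 IFT genes: at 2 of 3 IFT-A genes, 2 of 7 core IFT-B genes and 3 of 4 peripheral IFT-B genes, the fourth being Ift20. These are counts of few genes, beside the 22.7% of coding genes, and the subcomplexes were not compared by a test. The peak score is the authors' value and ranks peaks within a list. The middle score over the promoter peaks of all coding genes in replicate 1 was 17.9.

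Ift57, an adaptor of the peripheral subcomplex, had the highest score of the 34 genes in replicate 1, 41.2 (rank 155 of 7861, chr16:49519408-49519550), with its centre 65 bp upstream of its own nearest start. Replicate 2 listed no peak there, and neither H3K4me3 list held a promoter region. The nearest H3K4me3 region of replicate 1 was 20169 bp from the centre of the peak. The strongest TAF4b peak among these genes was therefore one without a called H3K4me3 region.

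Ift80, another peripheral subunit, scored 34.2 in replicate 1 (rank 430) and 64.8 in replicate 2 (rank 327 of 848). Both peaks were centred 13 bp downstream of the Ift80 start, and the neighbour on the opposite strand is Smc4, which encodes a condensin subunit. An H3K4me3 region of 2888 bp covered the site in replicate 1 (score 193.8, rank 871 of 64891), and none was listed in replicate 2. Ift80 was the only gene of the 34 with a promoter peak in both TAF4b libraries.

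Ift140, which encodes an IFT-A subunit, scored 36.2 in TAF4b replicate 1 (rank 315, chr17:25234832-25234974) and had no peak in replicate 2. The peak was centred 140 bp upstream of the Ift140 start, on the start of Cramp1, which the deposited nearest-promoter column names. Its H3K4me3 region in replicate 1 was the widest of the 34 genes, 3879 bp (score 253.4, rank 256), and replicate 2 listed none.

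Ift20, a subunit that also works at the Golgi, had a peak of 39.7 in replicate 1 (rank 193, chr11:78427031-78427173) and of 52.6 in replicate 2 (rank 539, chr11:78427068-78427256). The replicate 1 peak was centred 409 bp downstream of the canonical Ift20 start, inside exon 1 of the canonical transcript, and 5 bp from the nearest start, that of Tnfaip1. It lay in an H3K4me3 region of 1515 bp in replicate 1 (score 107.3) that was annotated to Ift20, and replicate 2 listed no region. The remaining IFT peaks of replicate 1 scored lower: Ift122 had 18.4, Ift172, the largest peripheral subunit, 15.4, and Ift74 and Ift81, which together bind tubulin, 13.4 each. Ift43, Ift22, Ift27, Ift46, Ift52 and Ift88 had no TAF4b peak in either list by either rule, so that 5 of the 7 core IFT-B genes were without one.

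Among the BBS genes, peaks were listed in replicate 1 for 6 of 9, beside 22.7% of coding genes: Bbs1, Bbs4, Bbs5, Bbs7 and Ttc8 among the 7 BBSome subunits, and Bbs10 among the 2 chaperonin-like factors. Bbs2, Bbs9 and Bbs12 had none, and replicate 2, which lists 3.14% of coding genes, had none for any BBS gene. Their median score percentile in replicate 1 was 37.6, where the percentile is the share of all listed peaks with a score at or below the peak's own. The median was 65.1 for the IFT genes, 75.8 for the transition zone genes, 68.5 for all 19 peaks and 63.6 for the promoter peaks of coding genes.

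Bbs10, which assists BBSome assembly, scored 20.3 in TAF4b replicate 1 (rank 2247, chr10:111134405-111134547) at 64 bp upstream of its start, within an H3K4me3 region of 1081 bp (score 95.4). Bbs7, a BBSome subunit, scored 19.4 (rank 2480, chr3:36667480-36667622) at 98 bp downstream, within a region of 1374 bp (score 83.5). Ttc8, the subunit also called BBS8, scored 12.4 (rank 4789, chr12:98886824-98886966) at 97 bp downstream, within a region of 790 bp (score 59.6). Replicate 2 of neither antibody listed any of the 3. Bbs4 (11.9), Bbs5 (10.4) and Bbs1 (7.94, rank 7270) completed the group, and the Bbs1 peak is near the lowest score that replicate 1 lists, 6.45.

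At the transition zone, TAF4b peaks were listed in replicate 1 for 6 of 11 genes, beside 22.7% of coding genes: 3 of the 8 MKS module genes (Tctn3, B9d2 and Tmem67), Cep290, and both NPHP module genes, Nphp4 and Rpgrip1l. Tctn1, Tctn2, Mks1, B9d1 and Cc2d2a had none, and replicate 2, with 3.14% of coding genes, listed none for any of the 11. The genes outside the MKS module thus all had a peak, on counts of 3 genes.

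Cep290, whose product links the membrane of the transition zone to its microtubules, scored 32.8 (rank 499, chr10:100323296-100323438) at 49 bp upstream of its start. It had no H3K4me3 region of its own class. A region of 1709 bp (score 89.4) spanned its start in replicate 1 and was annotated to Tmtc3, the gene on the other side, and replicate 2 listed none. Rpgrip1l, a scaffold of the NPHP module, scored 32.3 (rank 536, chr8:92039980-92040122) at 35 bp upstream of its start, within a region of 834 bp (score 59.6). Its nearest promoter in the deposited column is that of Fto, which encodes an RNA demethylase.

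Nphp4, the other NPHP gene, was the only one of the 34 with an H3K4me3 promoter region in both replicates. The region scored 122.2 in replicate 1 (rank 5412, 1520 bp wide) and 242.6 in replicate 2 (rank 25 of 1730, 1114 bp wide). Its TAF4b peak scored 21.8 in replicate 1 (rank 1901, chr4:152561983-152562125), 82 bp upstream of the nearest annotated Nphp4 start and 545 bp upstream of the canonical one, with Kcnab2 named as the nearest promoter. Tctn3 had the same score and rank (chr19:40600694-40600836) at 77 bp upstream of its start, in a region of 1738 bp (score 107.3), with Entpd1 named as the nearest promoter. Neither gene had a TAF4b peak in replicate 2.

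**Figure D2:**
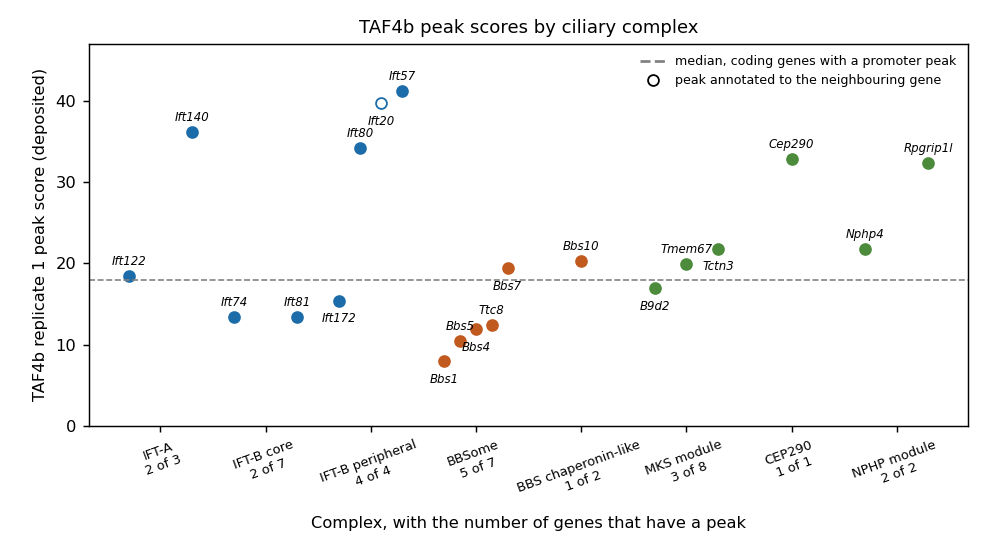
TAF4b replicate 1 peak scores (vertical axis, the authors' score) of the genes with a peak, by complex, with the number of genes that have one. Ift57, Ift20, Ift140, Ift80, Cep290 and Rpgrip1l stand above 32, and the 5 BBSome genes sit between 7.94 and 19.4 (dashed line, median of coding genes with a promoter peak, 17.9).

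The promoter class already selects peaks near a start, and the distances describe where within that range they lay. The deposited distance, from the peak centre to the start of the transcript that the authors' annotation gives as nearest, had a median of -17 bp over the 19 promoter peaks, where a negative distance is upstream, and of -50 bp over the promoter peaks of coding genes. Measured to the gene's own nearest annotated start, the distances ran from -140 bp at Ift140 to 98 bp at Bbs7, again with a median of -17 bp. By group the medians of this distance were -17 bp for the IFT genes, 33.5 bp for the BBS genes and -53 bp for the transition zone genes. By the deposited distance, for which that transcript can be another gene's or start elsewhere than in the annotation used here, the medians were -17, -4 and -49 bp, so the side of the start on which the BBS peaks lie depends on the start used.

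H3K4me3 was listed at nearly all of these starts in replicate 1. Regions of the promoter class were found for 25 of 34 genes (73.5%), beside 44% of coding genes. Within 500 bp of any annotated start, 32 of 34 had a region, beside 68.5% of coding genes, and the 2 without one were Ift57 and Cc2d2a. For Cc2d2a 2 intronic regions were listed all the same, with scores of 28.3 and 35.8. The first lies 815 bp from the canonical start, and the second has a deposited distance of 485 bp to the start at 43829631, which only transcripts outside the basic set use. Some of the regions gained by this rule were annotated to a neighbouring start (Ift27, Bbs12, B9d1 and Cep290), and others were classed as exon or intron of the gene itself (Ift43, Bbs2 and Tctn1). In replicate 2 the only region by either rule was that of Nphp4, beside 4.14% of coding genes by class and 6.54% by distance. Cut to as many regions as replicate 2 lists, replicate 1 kept promoter regions for 2 of the 34 genes, Ift140 and Ift80, beside 3.42% of coding genes.

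The width of the regions was near that of other genes. The median in replicate 1 was 1348 bp over 25 genes, beside 1337 bp over coding genes. It was 1507 bp for the 11 IFT genes with a region, 1081 bp for the 7 BBS genes and 1162 bp for the 7 transition zone genes. Within the IFT genes the medians were 2970 bp for the 2 IFT-A genes, 1053 bp for the 6 core IFT-B genes and 1732 bp for the 3 peripheral ones. Bbs1 and Tmem67 had the narrowest regions, 500 bp each, which is also the smallest width in the list.

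Tmem67, which encodes the membrane protein meckelin, had a TAF4b peak of 19.9 in replicate 1 (rank 2358, chr4:12087909-12088051) centred 11 bp downstream of its start. Its H3K4me3 region (score 32.8) began upstream of the peak and did not overlap it. The Bbs1 peak (chr19:4956586-4956728), 19 bp downstream of the start, met its region (score 31.3) only at the edge. Replicate 2 of both antibodies listed nothing at either gene.

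Of the 19 TAF4b promoter peaks of replicate 1, 17 overlapped an H3K4me3 region of replicate 1 by at least 1 bp, beside 86.3% of all promoter peaks in that list. The exceptions were Ift57 and Tmem67. Seen from the mark, 17 of the 25 genes with an H3K4me3 promoter region had a TAF4b promoter peak, beside 37.9% of coding genes with such a region. These 17 are counted by class and are not the same set as the overlapping peaks. They include Tmem67 and leave out Cep290, whose peak lies in a region annotated to Tmtc3. The median H3K4me3 width was 1374 bp in those 17 genes and 1302 bp in the 8 others, and among coding genes 1449 bp and 1254 bp. The 6 IFT genes with both included the 3 widest regions of all (Ift140, Ift80 and Ift122), and the ranges of the groups overlapped.

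An H3K4me3 promoter region was listed in replicate 1 for 17 of the 19 genes with a TAF4b promoter peak and for 8 of the 15 without. Of the 4944 coding genes with a TAF4b promoter peak, 3627 had such a region, beside 44% of all coding genes. The contrast is thus also present in coding genes at large. Where a region was listed, its median score was 96.2 in the 8 without a promoter peak and 83.5 in the 17 with one. Among coding genes the medians were 83.5 without and 93.9 with a promoter peak. The 8 include Ift20, whose region holds the TAF4b peak annotated to Tnfaip1. The order of the medians in the ciliary genes depends on that annotation, and with Ift20 moved they would be nearly equal. Besides Ift20, the 8 are Tctn2 (score 129.7, 1348 bp), Bbs9 (113.3, 1393 bp), Mks1 (102.9, 1162 bp), Ift88 (89.4, 1507 bp), Ift46 (85.0, 1256 bp), Ift22 (44.7, 850 bp) and Ift52 (35.8, 634 bp). Tctn2 and Mks1 belong to the MKS module, Bbs9 is a BBSome subunit, and the 4 others are core IFT-B subunits, of which Ift22 and Ift52 had the lowest scores of the 8. Among genes with a TAF4b peak, scores ran from 26.8 at Ift81 to 253.4 at Ift140, so the groups overlapped widely.

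**Figure D3:**
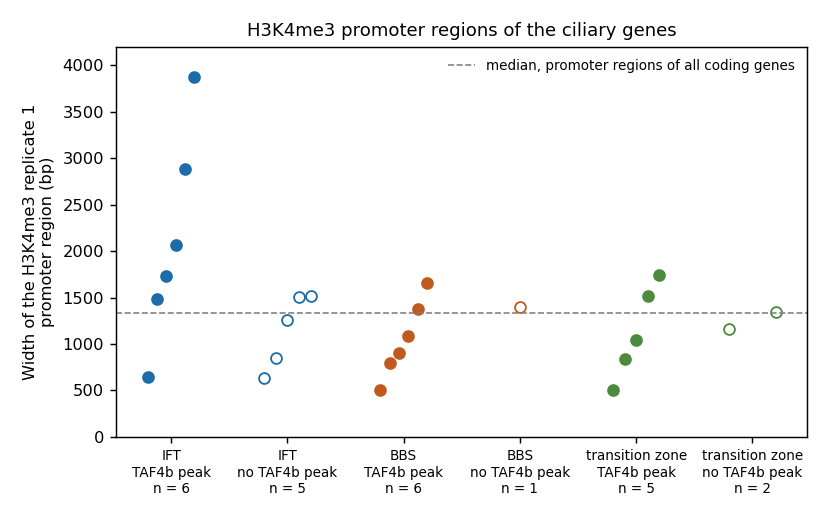
Width of the H3K4me3 replicate 1 promoter region (vertical axis, bp) of each of the 25 genes that have one, by group and by the presence of a TAF4b replicate 1 promoter peak. The widest are IFT genes with a TAF4b peak, up to 3879 bp at Ift140, and the other groups lie around the dashed median of coding genes, 1337 bp.

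Some of the genes share their promoter region with another gene. An opposite-strand start of a coding gene was annotated within 1000 bp of a start for 11 of the 34 genes, beside 11.8% of coding genes: Ift122 with Mbd4, Ift140 with Cramp1, Ift20 with Tnfaip1, Ift80 with Smc4, Bbs12 with Cetn4, Tctn3 with Entpd1, B9d2 with Tmem91, Tmem67 with Rbm12b2, Cep290 with Tmtc3, Nphp4 with Kcnab2, and Rpgrip1l with Fto. A TAF4b replicate 1 peak within 500 bp of any start of the ciliary gene was listed for 10 of the 11, all but Bbs12, beside 58% of coding genes with such a partner. Of the 23 genes without a partner, 10 had one, beside 23% of coding genes without a partner. Both classes of ciliary gene were above the coding genes of their class. Counting canonical starts only, 7 of the 34 genes have such a partner, and the pairs beyond these rest on other annotated starts.

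In 9 of these 10 the centre of the peak also lay within 500 bp of a start of the partner, from 0 bp at Ift140 to 276 bp at B9d2. The Tmem67 peak is at its canonical start and lies 1330 bp from the nearest Rbm12b2 start, so it is not at the promoter that makes these genes a pair. At a shared promoter, binding that serves the ciliary gene and binding that serves its neighbour cannot be told apart. The median score of the promoter peaks was 21.8 for the 9 genes with a partner and 13.4 for the 10 without, and 19.4 and 17.4 among coding genes. Of the 6 ciliary genes with the highest scores, all but Ift57 share their promoter.

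**Figure D4:**
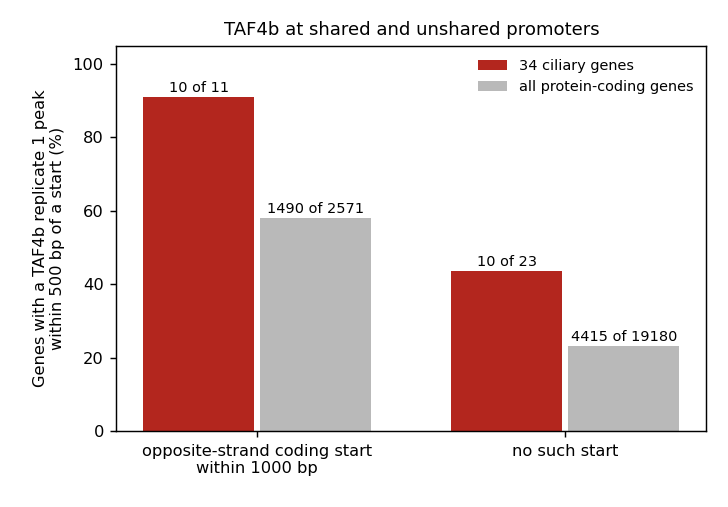
Share of genes with a TAF4b replicate 1 peak within 500 bp of an annotated start (vertical axis, percent), for the 34 ciliary genes and for all protein-coding genes, with and without an opposite-strand coding start within 1000 bp. The bars read 10 of 11 and 10 of 23 for the ciliary genes, and 58% and 23% for coding genes.

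The X box, the sequence bound by RFX factors, is known for its place in the promoters of ciliary genes. It was searched on both strands as GTTNCC, 2 bases of any kind and GGNAAC, with at most 1 mismatch in the 10 defined letters. In the window from 250 bp upstream to 50 bp downstream of the canonical start, 10 of the 34 genes held a match, and 2.47% of 21738 coding genes did. The matches are printed in the order IFT, BBS and transition zone, with capitals for letters that match a defined position and lower case for free or mismatched ones.
Ift22: GTTtCCtgGGctAC
Ift57: GTTgCCgtGGtgAC
Bbs1: GTTgCCaaGGcgAC
Bbs4: GTcgCCcgGGaAAC
Bbs7: GTTgCCttGGaAAC
Tctn1: GTTgCCcgGGcAAC
Tctn2: GTTaCCatGGctAC
Mks1: GTTgCCagGGgAAC
B9d2: GTTgCCccaGcAAC
Nphp4: GTctCCtaGGtAAC
Bbs7, Tctn1 and Mks1 match all defined letters, and the other 7 have 1 mismatch. The first base of the match lies between 63 bp upstream and 36 bp downstream of the canonical start in all but Nphp4, where it lies 231 bp upstream.

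The X box was present in 6 of the 19 genes with a promoter peak in replicate 1 and in 4 of the 15 without. Within 200 bp around the centres of the 19 promoter peaks, 3 held a match (Bbs1, Bbs4 and B9d2), beside 2.57% of 5754 promoter peaks. The matches of Bbs1 and Bbs4 lay inside the TAF4b peak. Those of B9d2, Ift57 and Bbs7 lay 8, 20 and 24 bp from its edge, and that of Nphp4 lay 243 bp away. A match shows these letters in the window and no more.

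**Figure D5:**
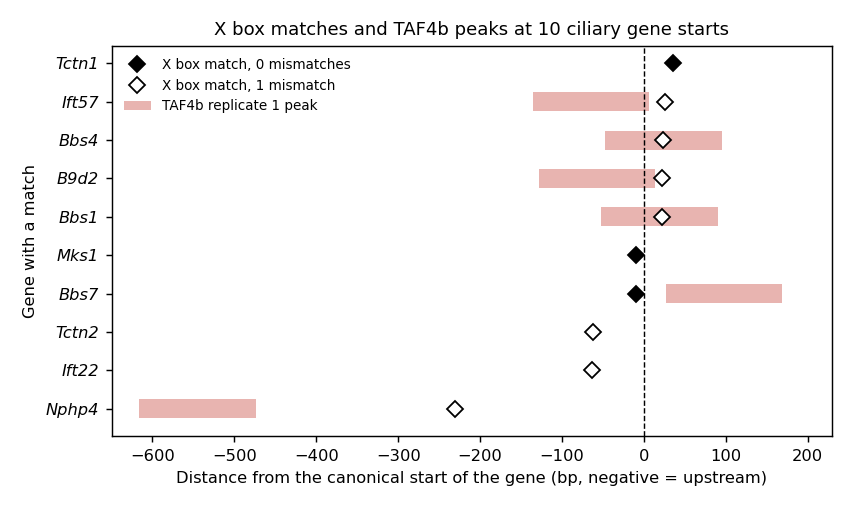
First base of the X box match (diamonds, filled for 0 mismatches) and extent of the TAF4b replicate 1 peak (bars) in bp from the canonical start, for the 10 genes with a match. The match lies between -63 and 36 bp in 9 genes and at -231 bp in Nphp4, 6 of the 10 genes have a peak, and the match falls inside it at Bbs1 and Bbs4.

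Other promoter sequences were searched without mismatches in the same 200 bp windows. A CCAAT box was present in 12 of the 19 windows, beside 42.1% of those of all promoter peaks, and a GC box in 12, beside 65.8%. The windows are wider than the peaks, and the CCAAT boxes of Ift140 lie outside its peak. The ETS site CCGGAAG was in 1 of 19 (17.4% of all), the cyclic AMP response element TGACGT in 3 (14.0%), and the E box CACGTG in 1 (10.2%). The TATA box TATAAA and the NRF1 site CGCATGCG were in 0 of 19, and in 2.88% and 4.14% of all. The YY1 site AAGATGGCG and the GFY core ACTACAATT were also in 0, and in 2.62% and 1.11% of all. The median GC content was 62% in these windows and 64.5% in all.

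Other ciliary genes also had TAF4b peaks. The 37 further genes belong to the transport trains, their motors, the BBS group and the transition zone. Of these, 17 had a promoter peak of TAF4b in the first library, beside 22.7% of coding genes. In the second 0 had one, beside 3.14% of coding genes. By group, peaks were listed for 5 of 11 other IFT genes, 4 of 8 motor genes, 3 of 5 other BBS genes and 5 of 13 other transition zone genes. The highest score was that of Tmem218, a transition zone membrane protein, at 42.7 (rank 117), above all 34 genes described here. Ift25 (29.3) and Wdr19 (28.8), which encode IFT-B and IFT-A subunits, and Invs (25.8), which encodes inversin, followed.

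The genes of motile cilia had 4 peaks among 16 in replicate 1, which is near the 22.7% of coding genes: Odad1 (31.8), Rsph4a and Ccno (11.4 each) and Ccdc39 (9.43). Odad1, an outer dynein arm docking protein, was also listed in replicate 2 (68.8, rank 265). RFX factors read the X box, and only the genes Rfx1 to Rfx5 and Rfx7 were looked up. Of these 6, 4 had TAF4b at the promoter in replicate 1, again beside 22.7% of coding genes. They were Rfx3 (36.7, rank 303), Rfx1 (33.3, rank 476), Rfx2 (29.8, rank 755) and Rfx5 (28.3, rank 904). Rfx4 and Rfx7 had none, and neither had Foxj1, which encodes a forkhead factor that regulates motile cilia. Replicate 2, which lists 3.14% of coding genes, listed none of these 7 genes.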

How the data were processed

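CUT&RUN libraries of TAF4b and H3K4me3 (2 each) were grouped by their titles. Per the submitters' processing notes, the tools were bcl2fastq 2.20, Trim Galore 0.5.0, FastQC 0.11.5, Bowtie2 2.3.0, SAMtools 1.9 and HOMER 4.10, with GRCm39. Intervals were called per library, and caller settings are not given in the sources used here. The peak score is the authors' value with unstated scaling, used only to rank within a list. The deposited lists also give the signed distance to the start of the nearest-promoter transcript and, for TAF4b, a fraction per peak that was not used. TAF4b peaks have a fixed width, so only H3K4me3 widths were compared. H3K4me3 lists were annotated against Ensembl 103, per the file headers.

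Genes were named through deposited transcript identifiers, of which at least 98.6% matched the GENCODE annotation of GRCm39. Of the names in the lists of other ciliary genes, 7 older symbols are not in the annotation and stand for genes counted under their current symbols. Where a gene had several promoter intervals, the highest-scoring was used. All intervals and shares were computed with Python 3.11.15, pandas 2.3.3 and pysam 0.24.0, and checked on simulated intervals and sequences. No test was made: the design holds 1 cell type at 1 stage, and counts are read against the share over all coding genes in the same list. Counts without an error are counts of single lists, and the depth behind them is unknown. The genes and lists were chosen with earlier results of these data known. Full values were given for genes with a TAF4b promoter peak in replicate 2, the 3 highest TAF4b scores of each group, the widest and narrowest H3K4me3 regions, and genes with a TAF4b but no H3K4me3 promoter interval. Ift20 and the other pathway genes named with values were chosen after these were seen. Alternatives covered the promoter rule, the list cut, overlaps, windows and mismatches.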

Additional observations from a re-analysis of the deposited data

How the results depend on the processing

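Of 40 alternative values for 17 results, 26 were within 1.5 times the value given (for shares of the 34 genes or their peaks, within its 95% Wilson interval), 14 moved further and 0 changed sign. The number of genes with a TAF4b promoter peak in replicate 1 was 13 to 20 under the other promoter rules and for the higher-scoring 50%, and 5 when cut to the size of replicate 2. In replicate 2 it was 2 within 500 bp of any start, and 0 by the deposited nearest-promoter column, where the transcript named for the Ift80 peak is not matched here. For H3K4me3 the cut gave 2 genes in replicate 1, and the nearest-promoter column gave 0 in replicate 2, since it names Kcnab2 for the Nphp4 region. The mean over the 2 TAF4b libraries was 10 ± 12.7 (SD, n = 2), and 1 to 19 leaving out either replicate. The mean over the 2 H3K4me3 libraries was 13 ± 17.0 (SD, n = 2), and 1 to 25 leaving out either. Peaks with an X box numbered 6 in 300 bp windows and 7 with 1 mismatch more, and in all promoter peaks the share became 3.28% and 10.7%. Among coding genes with an H3K4me3 promoter region only, the share with a promoter interval was 37.9% for TAF4b replicate 1, 5.50% for TAF4b replicate 2 and 7.54% for H3K4me3 replicate 2. The cause of these moves was not tested beyond the alternatives' own construction.

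The split by shared promoters and its alternatives were chosen after seeing the data. With partners set by canonical starts only, 6 of 7 genes with a partner and 14 of 27 without had a TAF4b peak, beside 62.3% and 23.7% of coding genes. No paired analysis was possible because no result comes from a test and nothing says that equal replicate numbers stand for the same cells. A gene missing from a list had no interval above that list's lowest score, which is 40.5 in TAF4b replicate 2 and 96.0 in H3K4me3 replicate 2, and its absence from these short lists does not show that the site was unbound or unmarked.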

Other observations

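Apart from its promoter peak, Bbs4 was the only one of the 34 genes with a second TAF4b interval in replicate 1. This peak (chr9:59283056-59283198) is intergenic and lies 22336 bp upstream of the nearest start, that of Bbs4, and its score of 16.9 (rank 3159) is above the 11.9 of the promoter peak. It overlaps an intergenic H3K4me3 region of replicate 1 (chr9:59281933-59283158, score 52.2, 1225 bp wide), which is close in score to the Bbs4 promoter region (56.6, 906 bp). Replicate 2 of neither antibody lists the site.

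At Ift81 the strongest H3K4me3 region assigned by nearest start is also outside the promoter. It lies 11064 bp upstream (chr5:122762491-122764799) with a score of 186.3 (rank 1067) and a width of 2308 bp, where the promoter region scores 26.8 and is 647 bp wide. No TAF4b peak of either list was assigned there by nearest start. Of the 37 further ciliary genes, H3K4me3 replicate 2 lists Kif3a, Tmem231 and Tmem237, with scores of 151.6, 121.3 and 106.1, beside 4.14% of coding genes with a promoter region in that list.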
